A study of Caenorhabditis elegans with 36 samples.

Results

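The genes described here are the 5 superoxide dismutase genes of Caenorhabditis elegans (sod-1 to sod-5), its 3 catalase genes (ctl-1 to ctl-3) and skn-1, taken by their symbols from the WBcel235 annotation. They are 9 of 19973 protein-coding genes on the 6 nuclear chromosomes. Their occupancy by HDA-1, a class I histone deacetylase, and by DVE-1, a homeodomain protein of the mitochondrial stress response, was read from 8 lists of ChIP-seq peaks, with 1 list for each protein and RNAi condition.

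Superoxide dismutases turn superoxide, a by-product of mitochondrial respiration, into hydrogen peroxide. Catalases break that peroxide down to water and oxygen. SKN-1, the worm counterpart of mammalian Nrf transcription factors, switches on detoxification genes under oxidative stress, and sod-3 is a classic target of the FOXO factor DAF-16.

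All worms carried the glp-4(bn2) allele, a temperature-sensitive mutation that limits germ cell proliferation at the restrictive temperature, were raised at 20 °C and were collected whole at day 1 of adulthood. HDA-1 was precipitated through GFP from worms with hda-1p::hda-1::gfp and DVE-1 from worms with dve-1p::dve-1::gfp, so each tagged protein was an overexpressed transgene under its own promoter. HDA-1 was mapped under dve-1 RNAi followed by atp-2 RNAi, under dve-1 RNAi, under control RNAi (L4440, the empty vector) followed by atp-2 RNAi, and under control RNAi. DVE-1 was mapped in the same 4 ways with hda-1 RNAi in place of dve-1 RNAi. Silencing atp-2, which encodes a subunit of the mitochondrial ATP synthase, was the mitochondrial stress. There were 18 ChIP and 18 input samples. HDA-1 with dve-1 silenced, before or without atp-2 RNAi, had 3 ChIP and 3 input samples per condition, and every other condition had 2 and 2. The samples with a partner silenced form a separate, later-numbered set from those with control RNAi, with or without atp-2 RNAi. The labels do not say whether the sets were processed apart. Partner silencing cannot be told apart from a difference between the sets.

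Each list joined the replicates of its condition, so a difference below sets 1 list against another. It has no spread between samples and no test, and the lists hold no depth behind a peak. The lists held 9862, 8512, 6634 and 6794 HDA-1 peaks in the order of conditions above, and 8221, 6962, 6484 and 4279 DVE-1 peaks. Median widths in the same order were 710.5, 733, 1067 and 1165 bp for HDA-1, and 1054, 1161.5, 1169 and 1301 bp for DVE-1. For both proteins the lists with the partner silenced thus had narrower peaks by median. The paper reports less tagged HDA-1 protein under dve-1 RNAi and less tagged DVE-1 protein under hda-1 RNAi. Whether this bears on any difference between lists with and without the partner silenced was not tested. The lists have no column for signal, so a wider peak is not shown to be a stronger one.

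A gene was counted as having a peak where at least 1 bp of a peak lay within a window of 500 bp on each side of its annotated 5' end. HDA-1 peaks met this at 6 of the 9 genes under dve-1 with atp-2 RNAi (31.8% of all genes), at 6 under dve-1 RNAi (27.8% of all genes), at 5 under control with atp-2 RNAi (31.3%) and at 5 under control RNAi (31.8%). DVE-1 peaks met it at 3 of the 9 under hda-1 with atp-2 RNAi (34.9% of all genes), at 3 under hda-1 RNAi (29.9%), at 4 under control with atp-2 RNAi (31.2%) and at 3 under control RNAi (19.9%). The DVE-1 counts lay near the background in the 2 lists with hda-1 silenced. The HDA-1 counts were higher than the DVE-1 counts through sod-2, sod-3 and ctl-2, which dropped out in every list when at least 50% of the window had to be covered.

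The genes fell into 4 kinds. sod-1, sod-4 and skn-1 had a peak of both proteins in all 8 lists (14.2% of all genes), sod-2 and sod-3 had HDA-1 peaks and no DVE-1 peak in any list (7.36% of all genes), and sod-5, ctl-1 and ctl-3 had no peak in any list (53.5% of all genes). ctl-2 had a peak reaching into its window in 4 lists, a choice of lists found at 3 genes in all (0.0150%).

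**Figure D1:**
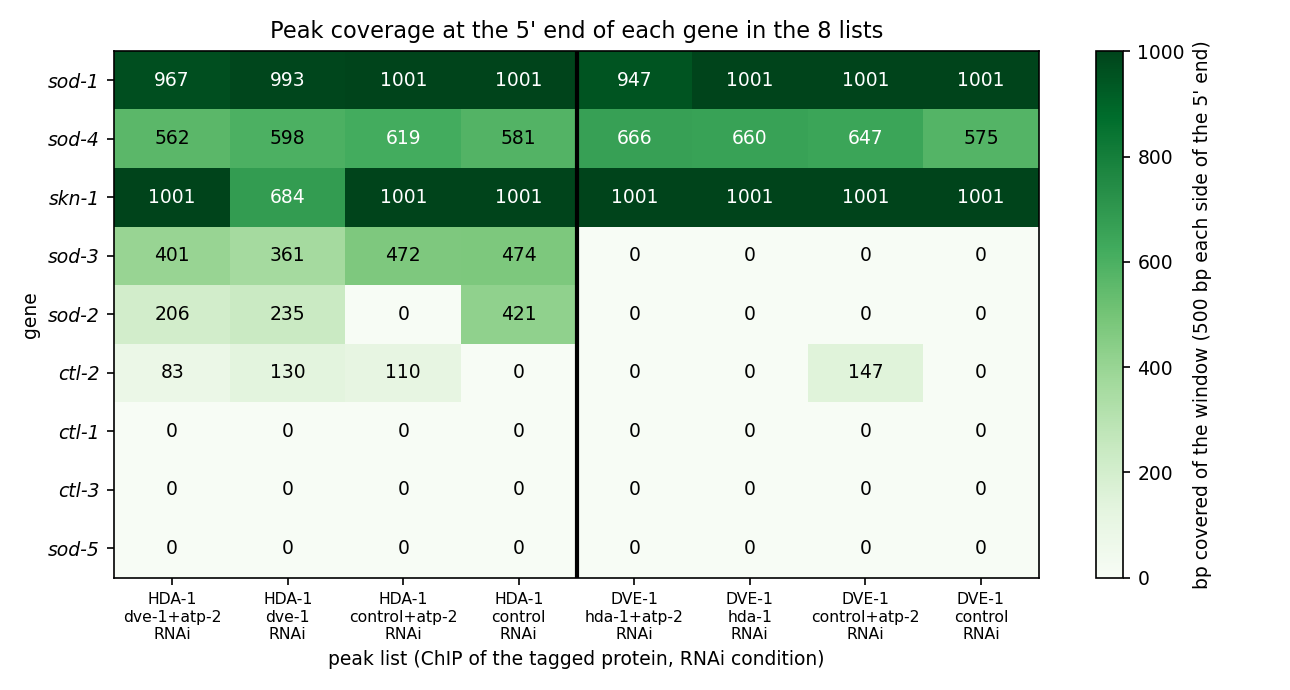
Base pairs of the window (500 bp on each side of the 5' end) that were covered by peaks, for each of the 9 genes (rows) in each of the 8 lists (columns, HDA-1 left of the line and DVE-1 right of it). sod-1, sod-4 and skn-1 are covered in every column, sod-3 in the 4 HDA-1 columns only, and sod-5, ctl-1 and ctl-3 in none.

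The cytosolic copper/zinc dismutase gene sod-1 (WBGene00004930, minus strand, chrII:6972706-6973887) lay almost wholly inside a peak throughout. HDA-1 peaks covered 967 bp of its window under dve-1 with atp-2 RNAi, 993 bp under dve-1 RNAi, and the full window under control with atp-2 and under control RNAi. DVE-1 peaks covered 947 bp under hda-1 with atp-2 RNAi and the full window in the other 3 lists. The whole gene of 1182 bp was covered in every list but HDA-1 under dve-1 RNAi, where 1010 bp were covered.

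What differed at sod-1 was how far the peaks ran past its 3' end. The HDA-1 peaks were 1771 bp wide under dve-1 with atp-2 RNAi, 1502 bp wide under dve-1 RNAi, 4061 bp wide under control with atp-2 RNAi and 4227 bp wide under control RNAi. The DVE-1 peaks were 2192, 2599, 3288 and 4053 bp wide under hda-1 with atp-2, hda-1, control with atp-2 and control RNAi. Both proteins therefore had narrower peaks here in the lists with the partner silenced than in those without. The median widths of the whole lists differed in the same direction, so this is not particular to sod-1. The upstream borders of the 8 peaks differed by at most 163 bp, and the downstream borders by 2608 bp. All 8 peaks shared the stretch chrII:6972878-6974333 (1456 bp).

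The wider peaks took in the 5' end of art-1, a neighbour whose start lies 1652 bp from that of sod-1. The art-1 window had 153 bp under HDA-1 peaks with dve-1 and atp-2 RNAi and 0 bp with dve-1 RNAi, against the full window in both lists with control RNAi. DVE-1 peaks covered 594 and 861 bp of it with hda-1 silenced, with and without atp-2 RNAi, and likewise the full window in both lists with control RNAi. Whether 1 broad peak over both genes is 1 bound region or several close together could not be read from the lists.

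sod-4 encodes an extracellular copper/zinc dismutase (WBGene00004933, minus strand, chrIII:9496884-9500375). Its peaks began just inside the gene and ran upstream. HDA-1 peaks covered 562, 598, 619 and 581 bp of the window under dve-1 with atp-2, dve-1, control with atp-2 and control RNAi. DVE-1 peaks covered 666, 660, 647 and 575 bp under hda-1 with atp-2, hda-1, control with atp-2 and control RNAi. All 8 values lay between 562 and 666 bp, and the ranges of the 2 proteins overlapped.

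Of the 3492 bp of sod-4, only 62 to 166 bp at the 5' end were covered, so the gene itself was nearly free of peaks. The gene-side borders of the 8 peaks lay within 104 bp of each other, while the upstream borders differed by 1812 bp. The HDA-1 peaks reached 930 and 964 bp upstream of the 5' end with dve-1 silenced (with and without atp-2 RNAi), against 2106 and 2062 bp under control RNAi with and without atp-2 RNAi. The DVE-1 peaks differed the other way. With atp-2 RNAi they reached 2318 bp upstream with hda-1 silenced and 2084 bp under control RNAi. Without atp-2 RNAi they reached 2267 bp with hda-1 silenced and 506 bp under control RNAi. Only this last difference was large, and the list under control RNAi is the shortest of the 8. Separate peaks further upstream were not looked at. By median over whole lists, peaks of both proteins were narrower with the partner silenced. The shared stretch of all 8 peaks was chrIII:9500314-9500881 (568 bp).

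The 300 bases before the annotated 5' end of sod-4 (chrIII:9500376-9500675, minus strand, RefSeq sequence of WBcel235) were covered in full in all 8 lists, and are shown because they lay in peaks of both proteins throughout. They had no match to the motifs described with sod-3.
sod-4: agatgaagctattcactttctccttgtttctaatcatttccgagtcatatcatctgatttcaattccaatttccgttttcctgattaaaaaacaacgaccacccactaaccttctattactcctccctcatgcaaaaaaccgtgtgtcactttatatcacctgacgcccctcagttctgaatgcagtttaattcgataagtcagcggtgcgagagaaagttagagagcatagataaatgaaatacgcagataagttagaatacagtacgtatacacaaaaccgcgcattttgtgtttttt

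sod-3 encodes a manganese dismutase of the mitochondrial matrix (WBGene00004932, plus strand, chrX:17092753-17094306). HDA-1 peaks covered 401 bp of its window under dve-1 with atp-2 RNAi, 361 bp under dve-1 RNAi, 472 bp under control with atp-2 RNAi and 474 bp under control RNAi. DVE-1 peaks covered 0 bp in all 4 lists. A peak in all 4 HDA-1 lists and in no DVE-1 list was found at 312 genes (1.56% of all genes).

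The sod-3 peaks were narrow and sat on the 5' end. They reached between 301 and 388 bp upstream and between 49 and 109 bp into the gene of 1554 bp, and between 13.2% and 27.1% of the peaks in their own list were narrower. The HDA-1 coverage differed by -113 bp under dve-1 RNAi against control RNAi and by -71 bp where atp-2 RNAi followed dve-1 RNAi rather than control RNAi. It differed by -2 bp under control with atp-2 RNAi against control RNAi. HDA-1 peaks were also narrower by median over the whole lists with dve-1 silenced. The 4 peaks shared chrX:17092452-17092801 (350 bp). The first 547 bp of sod-3 overlap C08A9.3 on the opposite strand, whose own 5' end lies 546 bp away and whose window had 3 to 63 bp under the HDA-1 peaks.

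The 300 bases before sod-3 (chrX:17092453-17092752, plus strand) lay wholly inside the peak in all 4 HDA-1 lists. Capitals mark a match to GTAAACA, the DAF-16 binding motif, read on the opposite strand at bases -114 to -108 from the 5' end.
sod-3: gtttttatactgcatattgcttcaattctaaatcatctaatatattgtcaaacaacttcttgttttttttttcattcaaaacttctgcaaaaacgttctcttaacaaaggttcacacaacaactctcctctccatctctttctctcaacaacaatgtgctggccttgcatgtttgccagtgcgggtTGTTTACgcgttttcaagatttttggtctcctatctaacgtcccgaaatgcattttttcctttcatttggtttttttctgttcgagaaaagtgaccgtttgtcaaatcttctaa

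Motifs were searched on both strands in the 300 bases before each gene. GTAAACA was found before 5.01% of all protein-coding genes. The DAF-16 associated element, CTTATCA, was found before 9.25% and the GATA motif, TGATAA, before 30.7%. The SKN-1 site was spelled as 2 bases that may each be A or T, followed by either TATCAT or the form TGTCAT, and was found before 16.4%. The DAF-16 associated element read on the opposite strand holds the GATA motif, so these overlap. Among the 9 genes, GTAAACA was found before sod-3, sod-5 and sod-2, both of the other DAF-16 and GATA motifs before ctl-1 and ctl-2, and the SKN-1 site before none. A match here is a string of letters and not a bound site.

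sod-2 encodes the other mitochondrial manganese dismutase (WBGene00004931, plus strand, chrI:8434550-8435807) and lies wholly inside dpt-1 on the opposite strand. HDA-1 peaks covered 206 bp of its window under dve-1 with atp-2 RNAi, 235 bp under dve-1 RNAi, 0 bp under control with atp-2 RNAi and 421 bp under control RNAi. DVE-1 peaks covered 0 bp in all 4 lists. The same choice of lists was found at 120 genes (0.601%).

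The 3 sod-2 peaks were among the narrowest of their lists: 0.274%, 2.36% and 8.42% of peaks were narrower under dve-1 with atp-2, dve-1 and control RNAi. Their upstream borders agreed within 18 bp. With dve-1 silenced the peaks stopped upstream of the gene, and under control RNAi the peak reached 141 bp into it. The 3 peaks shared 197 bp, and both matches to GTAAACA, at bases -143 to -137 and -106 to -100, lay within each of them. Of the 50-base words in the sod-2 window, 9.66% occurred again elsewhere in the genome, and of its words of 150 bases, the length of a sequenced read, 0%.

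**Figure D2:**
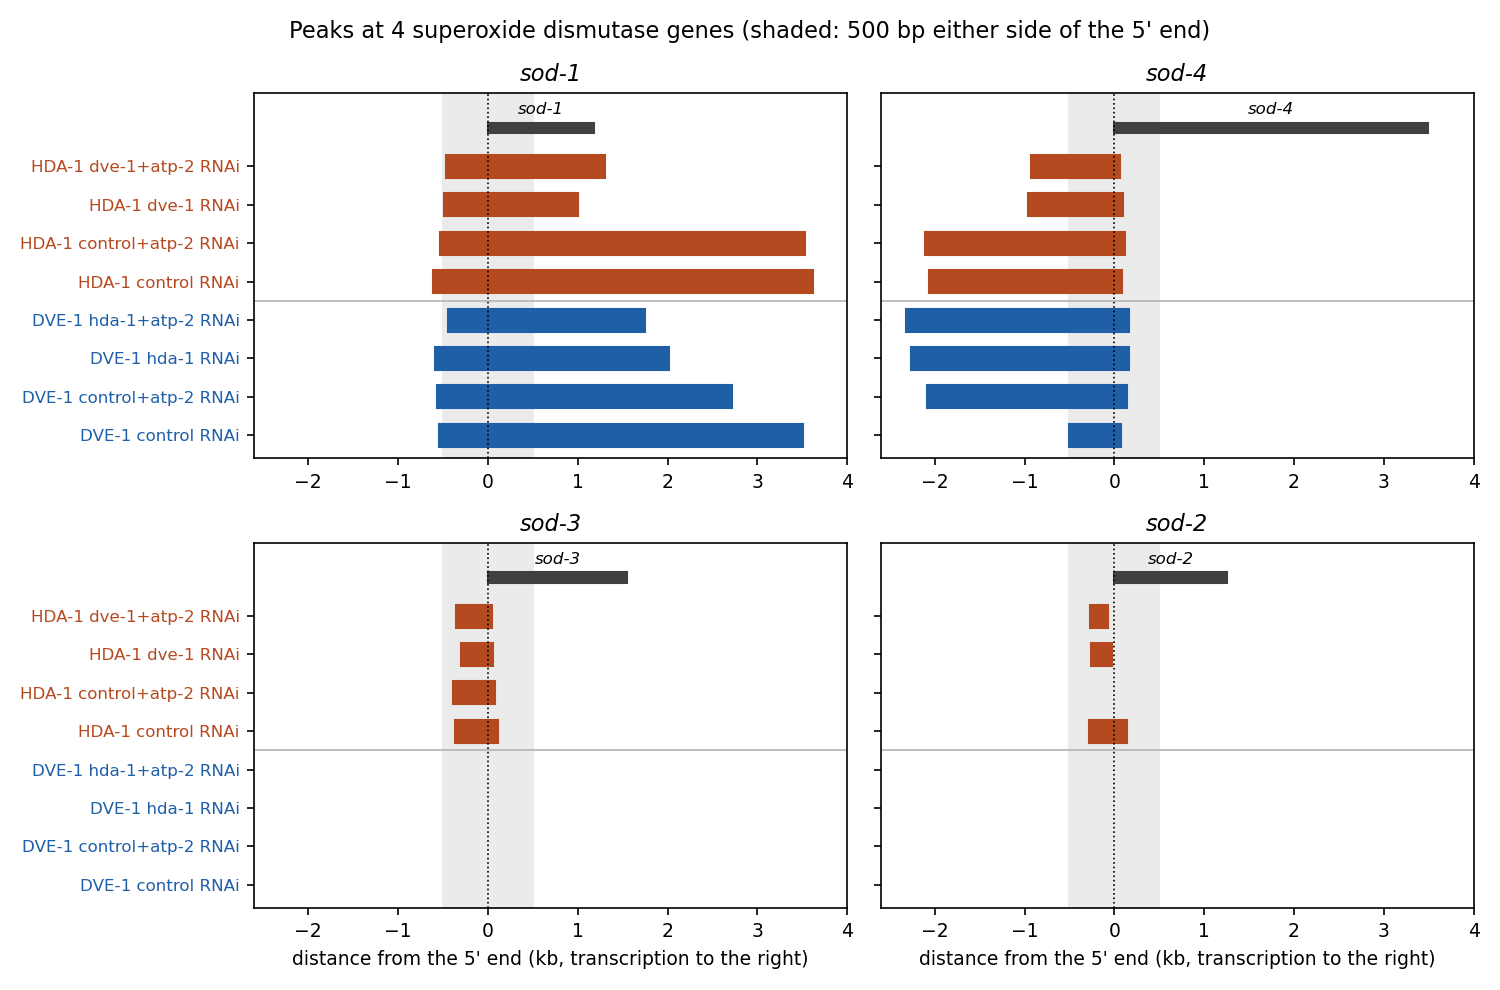
Peaks at sod-1, sod-4, sod-3 and sod-2 in the 8 lists (rows; HDA-1 above the line, DVE-1 below it), drawn to scale as distance from the 5' end in kb with transcription to the right; the dark bar is the gene and the shading the window. The sod-1 and sod-4 peaks share 1 border and differ at the other, the sod-3 peaks lie at the 5' end in the 4 HDA-1 rows, and the DVE-1 rows of sod-3 and sod-2 are empty. Only peaks that reach the gene or its window are drawn.

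sod-5, a copper/zinc dismutase gene (WBGene00007036, plus strand, chrII:4417633-4419130), had 0 bp of its window and 0 bp of its 1498 bp covered in all 8 lists. No bp of the gene was covered in any list for 50.3% of all genes. Peaks near the next gene, bpnt-1, started 1959 to 2270 bp downstream of the sod-5 5' end in 5 lists. In the other 3 the nearest peak was 15372 bp or more away, and in DVE-1 under control RNAi it was 40636 bp away. The sequence of sod-5 did not recur in the genome: 0 of the 50-base words of its gene and its window were found again.

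sod-5 is shown beside sod-3 because both carry the DAF-16 motif, while of this pair sod-3 had peaks and sod-5 none. Its 300 upstream bases (chrII:4417333-4417632, plus strand) have the match in capitals at bases -146 to -140, read on the opposite strand.
sod-5: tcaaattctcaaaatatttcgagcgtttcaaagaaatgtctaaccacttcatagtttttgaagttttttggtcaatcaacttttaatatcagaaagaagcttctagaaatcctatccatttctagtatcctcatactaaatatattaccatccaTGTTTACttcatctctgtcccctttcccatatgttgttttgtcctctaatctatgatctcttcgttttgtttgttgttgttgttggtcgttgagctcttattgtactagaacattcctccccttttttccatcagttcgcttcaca

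The 3 catalase genes stand in a row on the minus strand of chromosome II: ctl-2 (WBGene00000831, chrII:14299556-14302027), which encodes the peroxisomal catalase, then ctl-1 (WBGene00000830, chrII:14303568-14306260), which encodes a cytosolic catalase, and ctl-3 (WBGene00013220, chrII:14307798-14310779). Peaks were listed over ctl-2 only. ctl-1 and ctl-3 had 0 bp of window and 0 bp of gene covered in all 8 lists.

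HDA-1 peaks covered 2054 bp of the 2472 bp of ctl-2 under dve-1 with atp-2 RNAi, 2101 bp under dve-1 RNAi, 2081 bp under control with atp-2 RNAi and 1196 bp under control RNAi. DVE-1 peaks covered 0 bp under hda-1 with atp-2 RNAi, 0 bp under hda-1 RNAi, 2118 bp under control with atp-2 RNAi and 1170 bp under control RNAi. With atp-2 RNAi after control RNAi, the covered length was thus 885 bp longer for HDA-1 and 948 bp longer for DVE-1 than with control RNAi alone. With the partner silenced and no atp-2 RNAi, the covered length was 905 bp longer for HDA-1 under dve-1 RNAi and 1170 bp shorter for DVE-1 under hda-1 RNAi than under control RNAi. Where atp-2 RNAi followed, both differences had the same sign: partner silencing differed from control with atp-2 RNAi by -27 bp for HDA-1 and by -2118 bp for DVE-1.

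These peaks came from the 3' side of ctl-2. Each began beyond its 3' end, in or past Y54G11A.7, which overlaps that end by 65 bp, and ran into the gene without reaching the 5' end. The nearest peak border stood 418, 371 and 391 bp inside the gene from the 5' end in HDA-1 under dve-1 with atp-2, dve-1 and control with atp-2 RNAi, and 354 bp in DVE-1 under control with atp-2 RNAi. In both control with atp-2 RNAi lists, 1 peak (5637 bp for HDA-1, 6259 bp for DVE-1) spanned Y54G11A.7 and most of ctl-2, whereas both control RNAi lists held 2 separate peaks along that stretch, of which that at ctl-2 was 1744 bp wide for HDA-1 and 1544 bp wide for DVE-1. The 4 lists with the nearer borders put 83, 130, 110 and 147 bp in the window and counted as a peak at the 5' end. Under control RNAi the border stood 1276 bp away for HDA-1 and 1302 bp away for DVE-1, outside the window. The nearest miss among the other genes was ctl-3, with an HDA-1 peak 823 bp upstream of it where atp-2 RNAi followed dve-1 RNAi, and 809 bp upstream under dve-1 RNAi.

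The borders at ctl-2 stood beside a duplicated block of sequence. In the WBcel235 genome, chrII:14301688-14305950 (4263 bp) recurred without a mismatch as chrII:14305921-14310183, the copies being offset by 4233 bp and overlapping by 30 bp. The block held the 340 bp of ctl-2 at its 5' end, all of ctl-1, and 2386 of the 2982 bp of ctl-3. The block spanned 83.9% of the ctl-2 window, 100% of the ctl-1 window and 0% of the ctl-3 window. The 4 longer ctl-2 peaks ended 14 bp (DVE-1, control with atp-2 RNAi), 31 bp (HDA-1, dve-1 RNAi), 51 bp (HDA-1, control with atp-2 RNAi) and 78 bp (HDA-1, dve-1 with atp-2 RNAi) before its first base. None of the 8 lists covered 1 bp of its 8496 bp.

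The first bases of both copies are shown on the plus strand, with the preceding 30 bases in lower case and the first 30 bases of the block in capitals. The first is shown because the 4 longer ctl-2 peaks ended within 78 bp of its block, and the second, where no peak ended, for comparison. They lie at chrII:14301658-14301717, inside ctl-2, and at chrII:14305891-14305950, inside ctl-1.
first copy: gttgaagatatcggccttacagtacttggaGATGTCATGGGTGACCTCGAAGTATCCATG
second copy: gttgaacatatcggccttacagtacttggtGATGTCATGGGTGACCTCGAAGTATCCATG

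Reads were kept by the authors only where they mapped to a unique place, and a read pair that lies wholly in the block matches both copies alike. Absence of the proteins and absence of uniquely placed reads therefore cannot be told apart over ctl-1, over the 5' end of ctl-2 and over most of ctl-3. Of the 50-base words, 99.3% in ctl-1, 80.5% in ctl-3 and 16.1% in ctl-2 occurred again in the genome, against 6.49% over the 6 chromosomes. Those of the ctl-3 window recurred for 2.42%, so at the 5' end of ctl-3 the lack of a peak stood in nearly unique sequence. With words of 150 bases the shares were 95.3% in ctl-1, 79.0% in ctl-3, 8.22% in ctl-2, 0% in the ctl-3 window and 3.11% over the 6 chromosomes.

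Genes with repeated 5' sequence had few peaks across the genome. At least 80% of the 50-base words of the 5' window recurred for 290 protein-coding genes, ctl-1 and ctl-2 among them, and between 0.345% and 2.76% of these 290 had a peak in a given list. For the 19508 genes with under 50% recurring, the share was between 20.3% and 35.5%.

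The 300 bases before ctl-2 (chrII:14302028-14302327) and before ctl-1 (chrII:14306261-14306560), both on the minus strand and inside the block, were identical at all 300 positions, so 1 sequence stands for both genes. Capitals mark CTTATCA at bases -145 to -139 with the TGATAA it holds on the opposite strand, and another TGATAA at bases -137 to -132.
ctl-1 and ctl-2: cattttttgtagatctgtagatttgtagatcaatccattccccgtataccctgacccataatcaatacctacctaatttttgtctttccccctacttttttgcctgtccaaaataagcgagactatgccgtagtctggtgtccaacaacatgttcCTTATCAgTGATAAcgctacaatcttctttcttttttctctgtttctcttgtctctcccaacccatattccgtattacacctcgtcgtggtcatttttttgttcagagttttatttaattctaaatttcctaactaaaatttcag

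**Figure D3:**
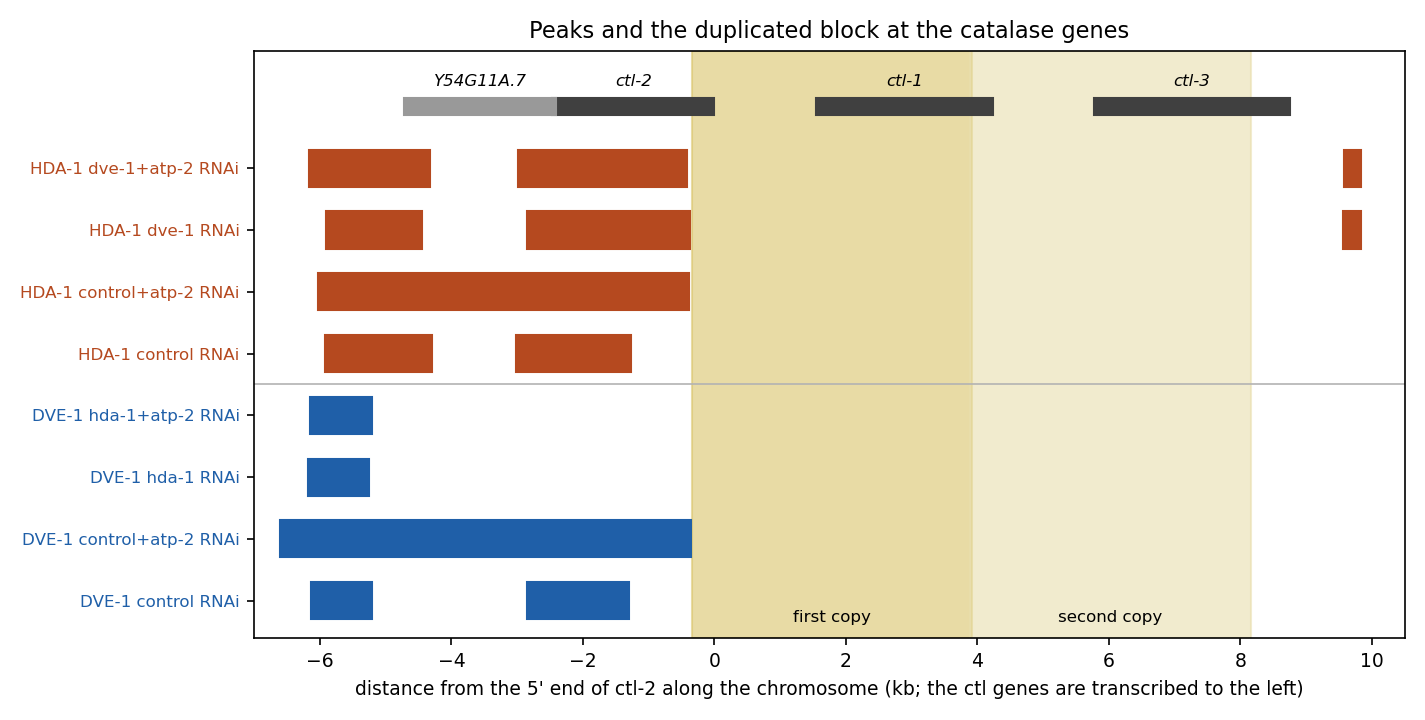
Peaks in the 8 lists (rows) along the catalase genes, drawn to scale as distance from the 5' end of ctl-2 in kb, with the genes as bars above and the 2 copies of the duplicated block shaded. The longer ctl-2 peaks end shortly before the left border of the first copy, and no peak lies in either copy.

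skn-1 (WBGene00004804, minus strand, chrIV:5651039-5660384) had some of the widest peaks of every list. HDA-1 peaks over it were 17111 bp wide under dve-1 with atp-2 RNAi, 9926 bp under dve-1 RNAi, 17423 bp under control with atp-2 RNAi and 19384 bp under control RNAi. DVE-1 peaks were 16843 bp wide under hda-1 with atp-2 RNAi, 17224 bp under control with atp-2 RNAi and 16839 bp under control RNAi. Under hda-1 RNAi the list held 2 DVE-1 peaks, of 9532 and 780 bp. Leaving out the 780 bp peak, at least 99.1% of the peaks in each list were narrower.

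The whole gene of 9346 bp was covered in 7 lists. In DVE-1 under hda-1 RNAi, 8012 bp were covered, and the gap between the 2 peaks lay towards the 3' end. sod-1 and skn-1 were the genes of the 9 covered over at least 85% of their length in all 8 lists, as were 1.51% of all genes (a limit set after seeing these values). The 5' window was covered in full in 7 lists, and over 684 bp in HDA-1 under dve-1 RNAi, where the peak ended 183 bp upstream of the 5' end.

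skn-1 has 4 annotated transcripts with 4 starts. The windows around all 4 starts were fully covered, except the 684 bp above at the first start and, in DVE-1 under hda-1 RNAi, 757 bp at the start of T19E7.2b.1 and 168 bp at the start of T19E7.2d.1. The broad peaks also held the 5' ends of clec-178, a gene inside skn-1, and in most lists of bec-1, the autophagy gene upstream. The bec-1 window was covered in full in all 8 lists, also in the 2 where the skn-1 peak stopped short of it. Under partner silencing alone the upstream reach was 183 bp for HDA-1 and 2120 bp for DVE-1. For HDA-1 and DVE-1 in this order it was 7349 and 7184 bp where atp-2 RNAi followed partner silencing, 7623 and 7457 bp under control with atp-2 RNAi, and 9583 and 7227 bp under control RNAi.

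**Figure D4:**
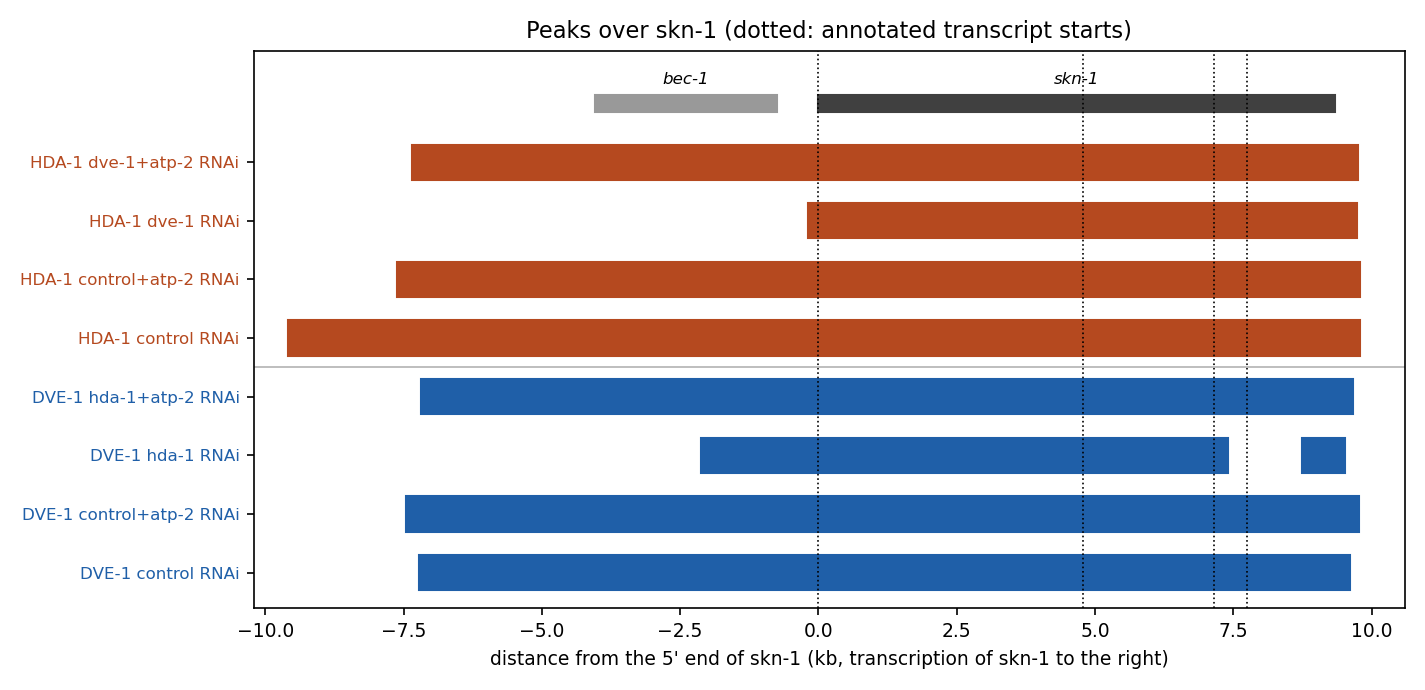
Peaks over skn-1 in the 8 lists (rows), drawn to scale as distance from the 5' end in kb with transcription to the right. The dark bar is skn-1, the lighter bar bec-1, and dotted lines are the annotated starts of skn-1. Only peaks that reach skn-1 or its window are drawn, so separate peaks over bec-1 are not shown. The peaks span the gene in all lists, with a gap in DVE-1 under hda-1 RNAi and a short upstream reach in HDA-1 under dve-1 RNAi.

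Gains and losses of a 5' peak between lists were few among the 9 genes. Those at ctl-2, for both proteins, came from peaks that entered the window from the 3' side and stopped short of the 5' end. For HDA-1 under control with atp-2 RNAi against control RNAi, ctl-2 gained a peak (2.72% of all genes gained) and sod-2 lost one (3.22% lost). Under dve-1 RNAi against control RNAi, ctl-2 gained one (3.28% gained) and none was lost (7.23% lost). With dve-1 and atp-2 RNAi, none changed against dve-1 RNAi (5.39% gained, 1.38% lost), and sod-2 gained one against control with atp-2 RNAi (5.79% gained, 5.22% lost).

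For DVE-1, every change was at ctl-2. It gained a peak under control with atp-2 RNAi against control RNAi (12.2% of all genes gained, 0.806% lost) and lost it under hda-1 with atp-2 RNAi against control with atp-2 RNAi (6.70% gained, 3.10% lost). None of the 9 changed under hda-1 RNAi against control RNAi (11.5% gained, 1.58% lost) or with atp-2 RNAi after hda-1 RNAi against hda-1 RNAi (6.39% gained, 1.39% lost). Of the 19973 genes, 2428 gained a DVE-1 peak with atp-2 RNAi and 2303 with hda-1 RNAi against the same control list, the shortest of the 8. No dismutase gene was among them, but sod-1 and sod-4 already had a peak in that control list and could not gain one. With so few genes left, no gain says little about the dismutases. The lists with atp-2 RNAi or hda-1 RNAi share that control list, and their values are not independent.

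HDA-1 and DVE-1 were next set side by side in the same condition. Under control RNAi, sod-1, sod-4 and skn-1 had peaks of both proteins (18.4% of all genes), sod-2 and sod-3 of HDA-1 alone (13.4%), and no gene of the 9 had DVE-1 alone (1.50%). Under control with atp-2 RNAi, sod-1, sod-4, ctl-2 and skn-1 had both (26.6%), sod-3 had HDA-1 alone (4.61%), and none had DVE-1 alone (4.61%). At ctl-2 the peaks of both proteins stopped short of the 5' end. With each protein's partner silenced the conditions differ, so those lists are only given side by side: sod-1, sod-4 and skn-1 had both (24.5% of all genes after atp-2 RNAi and 19.9% without it), sod-2, sod-3 and ctl-2 had HDA-1 peaks and no DVE-1 peak, both after atp-2 RNAi (7.34% of all genes) and without it (7.91%), and none of the 9 had DVE-1 alone (10.4% and 9.95% of all genes).

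Genes whose window coverage over the 8 lists came closest to that of each dismutase, catalase or skn-1 were sought over all protein-coding genes more than 10 kb away, by the mean absolute difference in bp. For sod-3 they were soem-1, riok-3 and W02H5.16 (11.1 to 14.1 bp), and for sod-2 they were cmt-1 (13.5 bp), mter-4 (14.1 bp) and gpr-2. For sod-1 they were F09G2.2 (5.25 bp), wwp-1 (5.38 bp) and nhr-135 (7.12 bp), and for sod-4 saeg-2 (32.8 bp) came closest, before ppk-3 (35.8 bp). For skn-1, ftn-2, sid-5 and Y119D3B.21 each differed by 0.375 bp. ftn-2 encodes a ferritin, an iron store, and stood in the list of redox genes below. For ctl-2 the closest were ZK353.10 (29.4 bp), W03B1.9 (32.9 bp) and F59A6.11 (35.1 bp), none of which had the same lists covered. sod-5, ctl-1 and ctl-3 shared 0 bp in every list with 10683 other genes each.

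As context, 42 genes that act beside these enzymes were read in the same way: peroxiredoxins, glutathione peroxidases, thioredoxins, glutaredoxins and their reductases, glutathione synthesis, ferritins, and regulators and targets of SKN-1. HDA-1 peaks were at the 5' end of 23, 17, 23 and 23 of the 42 under dve-1 with atp-2, dve-1, control with atp-2 and control RNAi. DVE-1 peaks were at 24, 25, 24 and 16 of the 42 under hda-1 with atp-2, hda-1, control with atp-2 and control RNAi. These shares, 38.1% to 59.5%, stand beside the 19.9% to 34.9% of all genes. Of the 42, 12 had a peak in all 8 lists (28.6%, against 14.2% of all genes) and 13 in none (31.0%, against 53.5%). Another 3 had one in HDA-1 lists only (7.14%), near the 7.36% of all genes. In DVE-1 lists only there were 2, and the share of all genes was not computed.

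**Figure D5:**
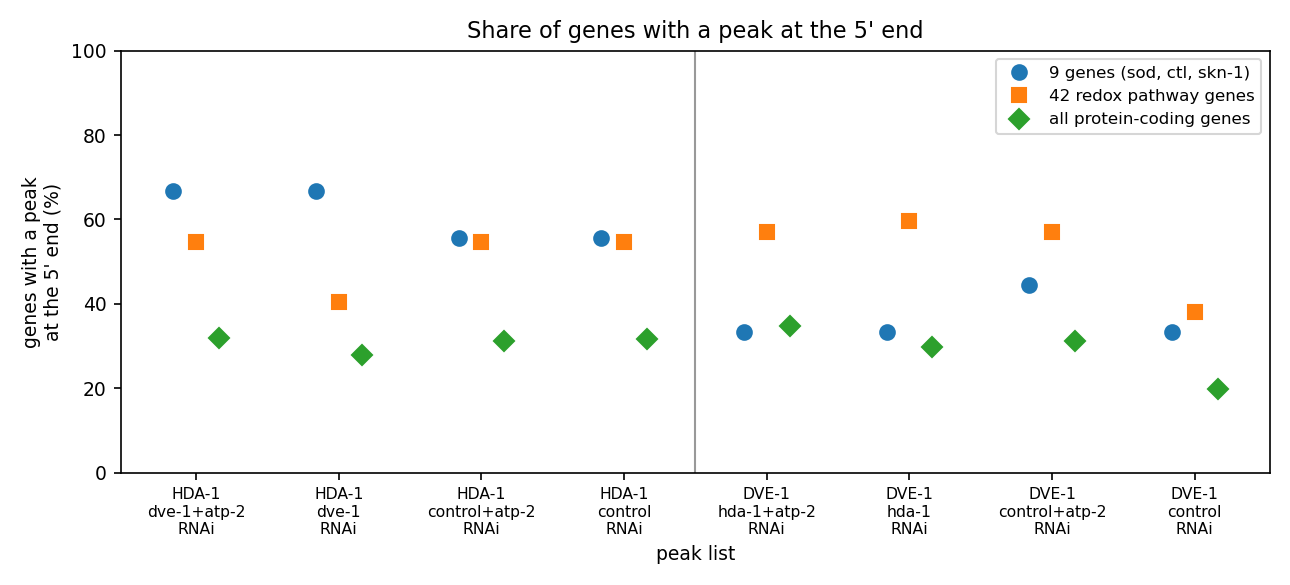
Percent of genes with a peak within 500 bp of the 5' end in each of the 8 lists, for the 9 genes (circles), the 42 redox genes (squares) and all protein-coding genes (diamonds). The redox genes lie above all genes in every list, while the circles of the 9 genes lie close to all genes in 2 of the 4 DVE-1 lists.

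Peroxiredoxins, glutathione peroxidases and thioredoxins were mixed. prdx-2, a cytosolic peroxiredoxin, had its window covered in full in all 8 lists, while prdx-3, prdx-6, gpx-3, gpx-4, gpx-8, trx-1 and trx-2 had 0 bp in all 8. Of the glutathione peroxidases, DVE-1 covered gpx-1 over 824 bp under control with atp-2 RNAi and 0 bp under control RNAi, gpx-6 over 859 and 0 bp, and gpx-7 over the full window and 0 bp. gpx-5 went the other way with 0 bp under control with atp-2 RNAi and 703 bp under control RNAi. Silencing hda-1 alone gave 600 bp at gpx-1, 756 bp at gpx-6, and the full window at gpx-7 and gpx-5. Silencing hda-1 before atp-2 gave 895 bp, 849 bp and again the full windows. Among DVE-1 lists, gpx-1, gpx-6 and gpx-7 thus lacked a peak only under control RNAi, the shortest of the 8 lists. Of all genes, 12.2% gained a DVE-1 peak under control with atp-2 RNAi against that list, and 0.806% lost one. gpx-2, in contrast, had its full window under DVE-1 peaks in both lists with control RNAi and 0 bp in both with hda-1 silenced. Under control RNAi, HDA-1 peaks covered 577 bp at gpx-1, 671 bp at gpx-6 and the full window at gpx-7.

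The 11 genes listed as regulators and cofactor of SKN-1 were mixed as well: 4 had a peak in all 8 lists (wdr-23, xrep-4, akt-1 and akt-2), 2 in none (brap-2 and pmk-1) and 5 in some lists. Of all genes, 14.2% had a peak in all 8 lists and 53.5% in none. The genes whose values follow were picked after those were seen. wdr-23, whose product targets SKN-1 for degradation, had at least 882 bp covered in all 8 lists, whereas pmk-1, which encodes a p38 kinase that activates SKN-1, had 0 bp in all 8. mdt-15, which encodes a Mediator subunit and cofactor of SKN-1, had 595 bp, 235 bp, 0 bp and the full window under HDA-1 peaks and 0, 153, 692 and 0 bp under DVE-1 peaks, in the order of conditions used above.

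daf-16 had at least 696 bp covered in all 8 lists. gcs-1, which encodes the glutathione synthesis enzyme switched on by SKN-1, had 473, 0, 593 and 101 bp under HDA-1 peaks and the full window, 246 bp, the full window and 112 bp under DVE-1 peaks, in the same order. Its 4 values with atp-2 RNAi were each higher than the value without it, whereas at mdt-15 this held for 2 of the 4. gcs-1 was named after its values were seen, and the share of all genes with such a pattern was not computed. gst-4, the usual SKN-1 reporter gene, had no HDA-1 peak and 593, 504, 564 and 0 bp under DVE-1 peaks, whereas sod-3 had HDA-1 peaks and no DVE-1 peak.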

How the data were processed

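The 9 genes and the lists of related genes and motifs were chosen with earlier results of these data known. The authors trimmed reads with Trim Galore, aligned them to ce11 (the WBcel235 sequence) with BWA 0.7.13-r1126, kept uniquely mapped, properly paired reads with a mapping quality of at least 20 and fewer than 8 mismatches, removed duplicates with Picard 2.17.6 and called broad peaks against input with MACS2 2.1.1. The submitters' processing notes also name FastQC and deepTools 2.4.2. Reads were paired ends of 150 bases. The study gives a least depth for all samples together, and the depth of each sample was not used here. Replicates were joined into 1 list per condition; the rule for joining is not given in the sources used here.

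Each deposited list holds 3 columns (chromosome, start and end) and no score, signal or count, so nothing was tested and no spread, interval or floor could be given. The numbers are descriptions of pooled lists, set beside the percent of all genes. Peaks from worms without a tagged protein were not analysed here. Genes and transcripts came from Ensembl release 115 and sequences from RefSeq (WBcel235). Overlaps were computed in Python 3.11.15 with numpy 2.4.6, tested on simulated data, and checked against bedtools 2.31.1. Repeated sequence was sought as words of 50 bases on both strands of the 6 chromosomes. Figures used matplotlib 3.10.9.

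Named genes were the 9 genes, genes sharing their peaks, the 3 genes closest in window coverage, and up to 12 of the 42 redox genes, in list order, with a peak in all lists or none or with a difference between atp-2 RNAi and its control. Outside this rule, gpx-2, daf-16 and regulators and targets of SKN-1 were named after their values were seen. Alternatives were windows of 250 and 1000 bp, at least 50% of the window covered, peaks of at least 500 bp, lists cut to their 4279 widest peaks, any transcript start and exons only; leaving out genes with repeated 5' sequence and words of 150 bases were added after seeing the data.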

Additional observations from a re-analysis of the deposited data

Results flagged for a closer look

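At 3 genes the HDA-1 coverage with atp-2 RNAi differed from that without it in opposite directions with and without dve-1 silenced. The difference between these differences was not tested, since each condition has 1 list. At sod-4 the covered window, and with it the covered length of the gene, was 36 bp shorter with atp-2 RNAi under dve-1 RNAi (a difference of -36 bp) and 38 bp longer under control RNAi. At sod-3 the covered window differed by 40 bp under dve-1 RNAi and by -2 bp under control RNAi. At ctl-2 the covered window differed by -47 bp under dve-1 RNAi and by 110 bp under control RNAi, and the covered length of the gene by -47 bp and 885 bp. No DVE-1 value did so. The narrowest of the peaks concerned, at sod-3 under dve-1 RNAi, was 361 bp wide.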

How the results depend on the processing

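Of 252 comparisons of a result with its value under an alternative, 222 stayed within 1.5 times the original. This pooled count includes results that were 0 under every setting. A fall from 6 to 4 genes, as in HDA-1 under dve-1 RNAi with peaks of at least 500 bp, also counts as within 1.5 times. Most of the results that moved were gains and losses between lists. sod-1, sod-4 and skn-1 had a peak in all 8 lists under every alternative run. Asking for at least 50% of the window left these 3 of the 9 genes in each of the 4 HDA-1 lists, left 14 of the 42 redox genes in HDA-1 where dve-1 was silenced before atp-2, and gave 0 genes gained or lost in the 5 comparisons that had any. Peaks of at least 500 bp, and likewise lists cut to their widest peaks, dropped sod-2 and sod-3 from all lists, leaving 3 genes in HDA-1 under control RNAi. They left 1 change with atp-2 RNAi against control RNAi for HDA-1, and 0 for dve-1 with atp-2 against control with atp-2 RNAi. The window of 250 bp left out ctl-2: 1 change remained with atp-2 RNAi for HDA-1, and 0 remained for HDA-1 with dve-1 silenced, for DVE-1 with atp-2 after control RNAi, and for DVE-1 when hda-1 was silenced before atp-2. The same 4 values, 1 and 0, came from leaving out ctl-1 and ctl-2 for their repeated sequence. The window of 1000 bp took in ctl-3 in both HDA-1 lists with dve-1 silenced and gave 2 changes in each comparison of these with control lists. No paired analysis was possible because each list joins its replicates, and leaving out a replicate could not be run for the same reason. The lists hold no depth, so a gene without a peak is not shown to be unbound.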
